A study of Mus musculus with 8 samples.

Results

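The 7 TNF receptor superfamily genes carried on the distal part of mouse chromosome 4 (*Tnfrsf1b*, *Tnfrsf8*, *Tnfrsf9*, *Tnfrsf25*, *Tnfrsf14*, *Tnfrsf4* and *Tnfrsf18*) were followed in regulatory T cells (Tregs) sorted by surface TNFR2. They were chosen by family and map position and were all found among the 20172 genes of the deposited table. Tregs came from the spleen of young adult female Foxp3 YFP-cre mice, in which the Foxp3 locus drives a Cre-YFP fusion, so that YFP marks cells expressing Foxp3. YFP+ CD4+ cells were sorted, with no treatment named in the labels, into a TNFR2+ and a TNFR2- population, and total RNA of 4 libraries of each was sequenced. Both populations therefore carry the same allele, tissue and cell type label and differ in the labels only by the gate. The labels do not say whether the 4 libraries of a population came from separate mice. The study counts its replicates for this comparison in mice without tying a library to a mouse, so p-values are taken here to measure the spread between libraries, part of which may be technical.

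Members of this family are membrane receptors that are clustered by trimeric ligands and signal by recruiting adaptors, mostly TRAF proteins, toward NF-kB and MAP kinases. Several act as costimulatory receptors on T cells, and Tregs are known to carry TNFR2, OX40, GITR and 4-1BB on their surface. *Tnfrsf25* differs from the others in having a cytoplasmic death domain.

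Of the 7 genes, 5 rose in TNFR2+ Tregs and none fell, where 4.52% of the 13990 genes tested rose and 3.39% fell. The 5 include *Tnfrsf1b*, the gene of the sorting gate, whose rise serves only as a check of the labels. *Tnfrsf9*, which encodes 4-1BB, and *Tnfrsf8*, which encodes CD30, differed most, with levels 6.33-fold and 5.25-fold higher in TNFR2+ Tregs. *Tnfrsf4*, which encodes OX40, was 2.67-fold higher, and *Tnfrsf18*, which encodes GITR, was 1.84-fold higher. *Tnfrsf1b*, the gene of TNFR2 itself, was 1.87-fold higher. *Tnfrsf14*, which encodes HVEM, and *Tnfrsf25*, which encodes DR3, did not pass the test, with log2 fold changes of 0.42 and -0.53. The test throughout was limma on log2(normalized count + 1), with p-values adjusted by Benjamini-Hochberg over all genes tested and a threshold of 0.05, and a log2 fold change is the mean of TNFR2+ libraries minus that of TNFR2- libraries on this scale. The median log2 fold change was 0.90 over the 7 genes, which is the value of *Tnfrsf1b*, and -0.01 over all genes tested.

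Normalized counts summed to 9576920 to 10295200 in TNFR2+ and to 10483300 to 11492762 in TNFR2- libraries, so every TNFR2- sum was above every TNFR2+ sum. All 8 Treg markers examined were present, with a summed level of 32774 to 38303 in TNFR2+ and 25217 to 30396 in TNFR2- libraries. *Foxp3* stood at 3126 ± 219 and 3664 ± 316 (SD, n = 4). Of the 8, 3 were called, all higher in TNFR2+ libraries, where 4.52% of all genes tested rose. The log2 fold change was positive for 6 and negative for 2, *Foxp3* (-0.23) and *Il2ra* (-0.34), which did not pass. Of 12 B cell markers, 10 were listed, with a sum of 3999 to 6088 in TNFR2+ and 1799 to 2939 in TNFR2- libraries. This sum came mostly from *Ighm*, which itself rose (log2 fold change 1.27, adjusted p = 7.45e-04 by limma). Without *Ighm* the sums overlapped, at 470 to 565 in TNFR2+ and 215 to 535 in TNFR2- libraries. Of the 6 B cell markers tested only *Ighm* was called. The log2 fold change was positive for 5 and negative for 1, *Ebf1* (-0.43). *Cd79a* and *Pax5* were too low to be tested and had lower means in TNFR2+ libraries. Myeloid markers, of which 6 of 14 were listed, summed to 58.2 to 144 and 104 to 186. Of the other cell types, 8 of 11 cytotoxic lymphocyte markers summed to 148 to 236 and 113 to 170. Of the 4 tested, only *Nkg7* was called, at 64.3 ± 19.3 in TNFR2+ and 7.83 ± 7.29 in TNFR2- libraries (SD, n = 4). Its adjusted p was 0.00927 by limma, and its TNFR2- mean was below 10, the mean over all libraries required for testing. *Eomes* and *Cd8b1* had log2 fold changes of 0.11 and 0.04 and *Prf1* of -1.09, and none of them passed. The single listed erythroid marker reached at most 12.1, and 2 of 6 platelet markers summed to 12.2 to 224 and 41.2 to 183. The part of these cells in the receptor results was not tested. In bulk RNA, fewer cells expressing a gene and less of its RNA per cell cannot be told apart.

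The 7 genes lie over 10.8 Mb of chromosome 4 (GRCm38) in 2 close pairs and 3 single positions. *Tnfrsf1b* (chr4:145213463-145246870, minus strand) and *Tnfrsf8* (chr4:145267137-145315164, minus strand) are neighbors separated by 20.3 kb. *Tnfrsf9* (chr4:150914562-150946102), *Tnfrsf25* (chr4:152115934-152120119) and *Tnfrsf14* (chr4:154921933-154928563) stand apart, the first and the second on the plus strand and the last on the minus strand. *Tnfrsf4* (chr4:156013843-156016612) and *Tnfrsf18* (chr4:156026164-156028895), both on the plus strand, are separated by 9.55 kb. No member had a transcript sharing 95% identity over 50% of its length with another gene. *Tnfrsf9* overlaps *Camta1* and *Tnfrsf18* overlaps the antisense gene *Gm16008*, each on the opposite strand, and whether strand was used in counting is not given in the sources used here. *Camta1* and *Gm16008* had lower means than the receptor genes they overlap in both groups, at 86.2 ± 30.2 and 8.25 ± 6.17 in TNFR2+ and 107 ± 30.2 and 15.1 ± 7.85 in TNFR2- libraries (SD, n = 4).

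The promoters of *Tnfrsf1b* and *Tnfrsf8* are printed because these neighboring genes both rose. A further reason is that their RefSeq start coincides with the start of the GENCODE gene with no annotated exon upstream. Each sequence holds the 250 bases before the start, 5′ to 3′ on the strand of the gene (RefSeq, GRCm38.p6), at chr4:145246871-145247120 and chr4:145315165-145315414, both on the minus strand. Capitals mark a STAT motif (TTCNNNGAA) in *Tnfrsf1b*, and an NF-kB consensus motif followed by an AP-1 motif (TGANTCA) in *Tnfrsf8*:
Tnfrsf1b: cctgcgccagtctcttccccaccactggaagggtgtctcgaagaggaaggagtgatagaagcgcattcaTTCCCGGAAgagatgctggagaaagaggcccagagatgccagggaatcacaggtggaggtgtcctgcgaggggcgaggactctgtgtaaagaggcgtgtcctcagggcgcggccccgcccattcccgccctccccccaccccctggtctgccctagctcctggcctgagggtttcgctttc
Tnfrsf8: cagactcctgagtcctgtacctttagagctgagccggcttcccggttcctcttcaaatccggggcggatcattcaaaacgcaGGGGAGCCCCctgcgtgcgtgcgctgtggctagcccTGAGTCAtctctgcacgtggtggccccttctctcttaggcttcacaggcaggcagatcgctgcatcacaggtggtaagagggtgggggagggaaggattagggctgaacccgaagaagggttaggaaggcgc
All 7 genes had an entry in the RefSeq table, with 9 promoters in total, and 4 motifs were searched on both strands. The NF-kB consensus was found in 2 of the 9 promoters and in 3.899% of the 32851 promoters of the table. The AP-1 motif was found in 2 and in 6.75%, the STAT motif in 4 and in 7.02%, and the forkhead motif (GTAAACA) in 0 and in 3.17%. Besides *Tnfrsf8*, the second promoter of *Tnfrsf9* held the NF-kB and AP-1 motifs, as overlapping matches GGGGATTTCC and GGGATTTCCC at -43 to -33 and as TGAGTCA at -15 to -9, together with a STAT motif at -136 to -128. *Tnfrsf18* and the second promoter of *Tnfrsf25* held a STAT motif each, and *Tnfrsf4* and *Tnfrsf14* held none of the 4 motifs. Several windows overlap annotated exons. These covered 166 of the 250 bases for *Tnfrsf4* (exons of *Sdf4*), 158 for *Tnfrsf18* and 125 for *Tnfrsf14*. They covered 81 in the second promoter of *Tnfrsf9*, which lies 13437 bases from the GENCODE gene start, and 22 in that of *Tnfrsf25*. For *Tnfrsf4*, no GENCODE transcript of the gene held the bases just after the RefSeq start. The motif matches describe letters in a window, and binding was not measured.

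*Tnfrsf1b* served as a check of the labels, since its protein was the gate, and its difference is no finding. It measured 3148, 1839.8, 2631 and 2383 normalized counts in TNFR2+ replicates 1 to 4 and 1266, 1563, 1177 and 1277 in TNFR2- replicates 1 to 4. Every TNFR2+ library was above every TNFR2- library, but TNFR2- libraries still held *Tnfrsf1b* mRNA, and the lowest TNFR2+ library was only 1.18 times the highest TNFR2- library. The log2 fold change was 0.90 (SE 0.16, adjusted p = 0.00449 by limma), and it ranked 1473 among all genes tested. *Tnfrsf1b* was the member whose call depended on a setting of the test, with an adjusted p of 0.0574 when the intensity trend of the variance was left out and between 0.00209 and 0.00997 in the other full-sample settings.

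Among the costimulatory receptors, *Tnfrsf9* measured 1234, 1797, 1542 and 1073 normalized counts in TNFR2+ replicates 1 to 4 and 339, 116, 335 and 171 in TNFR2- replicates 1 to 4. The groups were far apart, with the lowest TNFR2+ library 3.16 times the highest TNFR2- library, and within TNFR2- Tregs replicates 1 and 3 were about alike and well above replicates 2 and 4. Its log2 fold change of 2.66 (SE 0.31, 95% interval 1.98 to 3.34, adjusted p = 4.70e-04 by limma) ranked 193 among all genes tested.

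*Tnfrsf8*, the receptor for CD153, measured 240.4, 323, 350.0 and 381 normalized counts in TNFR2+ replicates 1 to 4 and 69.6, 43.7, 112 and 37.7 in TNFR2- replicates 1 to 4. The groups did not overlap, and TNFR2- replicate 3 was the highest of its group. Its log2 fold change was 2.39 (SE 0.34, 95% interval 1.65 to 3.13, adjusted p = 0.00112 by limma), ranking 264. Per kb of transcript it had the lowest level of the members that rose.

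*Tnfrsf4* measured 2172, 2062, 2429.7 and 1865 normalized counts in TNFR2+ replicates 1 to 4 and 847, 464, 1239.5 and 812 in TNFR2- replicates 1 to 4. TNFR2+ libraries were close to each other, with an SD of 0.16 on the log2 scale, whereas TNFR2- libraries spread with an SD of 0.58. The log2 fold change was 1.42 (SE 0.23, 95% interval 0.91 to 1.92, adjusted p = 0.00253 by limma), ranking 779.

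*Tnfrsf18*, next to *Tnfrsf4*, measured 1273, 1288, 1401 and 1459.8 normalized counts in TNFR2+ replicates 1 to 4 and 720.1, 647, 904 and 698 in TNFR2- replicates 1 to 4. It was the tightest member within TNFR2+ Tregs, with an SD of 0.10 on the log2 scale, and its groups did not overlap. Its log2 fold change was 0.88 (SE 0.14, 95% interval 0.57 to 1.18, adjusted p = 0.00234 by limma), ranking 1543.

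*Tnfrsf14*, the receptor that binds both the TNF family ligand LIGHT and the immunoglobulin family proteins BTLA and CD160, measured 203, 198, 211 and 266 normalized counts in TNFR2+ replicates 1 to 4 and 147, 182, 145 and 181 in TNFR2- replicates 1 to 4. All TNFR2+ libraries were above all TNFR2- libraries, but the nearest pair was separated by a ratio of only 1.08. The log2 fold change of 0.42 (SE 0.22, 95% interval -0.06 to 0.89) did not pass, with an adjusted p of 0.281 by limma, although the exact two-sided permutation test over the 70 relabellings of the 8 libraries gave its smallest possible p of 0.0286 before any adjustment. Counted this way, 6 of the 7 genes did not overlap between the groups and were higher in TNFR2+ Tregs, where 15.4% of all genes tested did not overlap, 8.08% with higher and 7.29% with lower values in TNFR2+ Tregs. The 6 include *Tnfrsf1b*, the gene of the gate.

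*Tnfrsf25*, the death domain receptor, measured 159, 153, 177 and 250.1 normalized counts in TNFR2+ replicates 1 to 4 and 281, 220.4, 186 and 414 in TNFR2- replicates 1 to 4. It was the single member with a lower mean in TNFR2+ Tregs, and the groups overlapped through TNFR2+ replicate 4. Replicate 4 was the highest library of both groups for this gene. The log2 fold change of -0.53 (SE 0.28, 95% interval -1.13 to 0.06) did not pass, with an adjusted p of 0.272 by limma and an exact two-sided permutation p of 0.114.

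**Figure D1:**
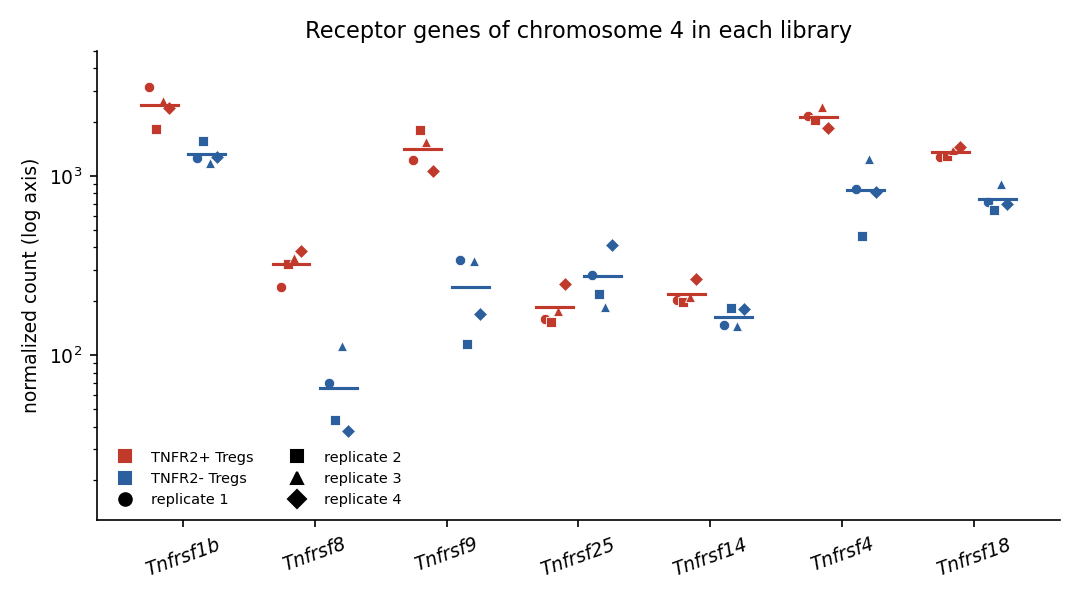
Normalized counts (log axis) of the 7 receptor genes, ordered along the chromosome, in each TNFR2+ (red) and TNFR2- (blue) library; marker shapes are replicates and bars are group means. Groups are apart for every gene except *Tnfrsf25*, with the widest gaps at *Tnfrsf8* and *Tnfrsf9*.

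Leaving out each of the 8 libraries in turn kept the 5 calls and added none, with log2 fold changes of 2.36 to 2.87 for *Tnfrsf9*, 2.17 to 2.69 for *Tnfrsf8*, 1.16 to 1.63 for *Tnfrsf4*, 0.81 to 0.98 for *Tnfrsf18* and 0.78 to 1.04 for *Tnfrsf1b*. Over the same refits *Tnfrsf14* ranged from 0.32 to 0.47 and *Tnfrsf25* from -0.70 to -0.32.

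Whether members differed from each other in the size of their difference was asked for all 21 pairs, from the log2 ratio of the 2 genes within each library. In 14 pairs the ratio differed between the groups, with an exact two-sided permutation p of 0.0286, the smallest the design allows, and 0.0429 after Benjamini-Hochberg adjustment over the 21 pairs. *Tnfrsf9* rose more than *Tnfrsf4* by 1.24 log2 units (95% interval 0.65 to 1.84), more than *Tnfrsf18* by 1.79 (0.89 to 2.68) and more than *Tnfrsf1b* by 1.76 (0.43 to 3.09). Per library, *Tnfrsf9* stood at 0.392 to 0.977 times *Tnfrsf1b* in TNFR2+ Tregs and at 0.0746 to 0.285 times in TNFR2- Tregs. *Tnfrsf8* rose more than *Tnfrsf4* by 0.97 (0.25 to 1.70) and more than *Tnfrsf18* by 1.51 (0.82 to 2.20). All 6 ratios to *Tnfrsf25* differed, including that of *Tnfrsf14*, by 0.95 (0.38 to 1.52), so the 2 members that did not pass on their own still differed from each other.

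The remaining 7 pairs did not pass. *Tnfrsf9* and *Tnfrsf8* differed by 0.27 log2 units (95% interval -0.48 to 1.02, adjusted exact permutation p = 0.390), so a difference of either sign was not resolved. The neighbors *Tnfrsf4* and *Tnfrsf18* differed by 0.54 (-0.01 to 1.10, adjusted exact permutation p = 0.0667). The neighbors *Tnfrsf8* and *Tnfrsf1b* differed by 1.49 (0.29 to 2.69) with the same adjusted exact permutation p of 0.0667, since 1 TNFR2- library fell within the TNFR2+ range. The same p was found for *Tnfrsf4* against *Tnfrsf14* (1.00) and *Tnfrsf18* against *Tnfrsf14* (0.46). *Tnfrsf1b* and *Tnfrsf18* had the closest fold changes, differing by 0.02 (-0.58 to 0.63, adjusted exact permutation p = 0.886), and this was the pair whose sign changed when a library was left out. *Tnfrsf4* and *Tnfrsf1b* differed by 0.52 (-0.48 to 1.51, adjusted exact permutation p = 0.253).

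To compare levels between genes, normalized counts were divided by the length of the longest coding transcript, or of the median coding transcript as an alternative. By level per kb, *Tnfrsf4* was the highest member in TNFR2+ Tregs at 2070.0 ± 229 normalized counts per kb (SD, n = 4), followed by *Tnfrsf18* (1140.1 ± 75.7), *Tnfrsf9* (667 ± 153), *Tnfrsf1b* (655 ± 142), *Tnfrsf14* (187 ± 26.9), *Tnfrsf25* (111 ± 26.9) and *Tnfrsf8* (94.8 ± 17.6). With this length *Tnfrsf9* and *Tnfrsf1b* could not be ordered, each being higher in 2 of 4 libraries, and *Tnfrsf25* exceeded *Tnfrsf8* in 3 of 4 with overlapping ranges. In TNFR2- Tregs the order by level per kb was *Tnfrsf4* (816 ± 308), *Tnfrsf18* (624 ± 94.2), *Tnfrsf1b* (346 ± 44.0), *Tnfrsf25* (166 ± 60.4), *Tnfrsf14* (140 ± 17.3), *Tnfrsf9* (114 ± 54.0) and *Tnfrsf8* (19.3 ± 9.92). Here *Tnfrsf4* and *Tnfrsf18* (in order in 3 of 4 libraries), *Tnfrsf25* and *Tnfrsf14* (2 of 4) and *Tnfrsf14* and *Tnfrsf9* (2 of 4) overlapped. By the longest transcript *Tnfrsf4* and *Tnfrsf18* thus led and *Tnfrsf8* came last in both groups, while *Tnfrsf9* stood at place 3 in TNFR2+ and place 6 in TNFR2- Tregs. The level of *Tnfrsf9* depended on the length used. With the median coding length it stood at 1238 ± 283 per kb in TNFR2+ Tregs (SD, n = 4), above *Tnfrsf1b* (655 ± 142) in 4 of 4 libraries and not separated from *Tnfrsf18* (1258 ± 83.5), which was higher in 2 of 4. *Tnfrsf14* was then at 318 ± 45.8 in TNFR2+ and 238 ± 29.5 in TNFR2- Tregs. In TNFR2- Tregs *Tnfrsf9* (211 ± 100.1) moved to place 5, above *Tnfrsf25* (169 ± 61.5) in 2 of 4 libraries. Without TNFR2+ replicate 2, and by the longest transcript, *Tnfrsf9* and *Tnfrsf1b* exchanged places in TNFR2+ Tregs.

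The summed level per kb of the 7 genes was 4926 ± 300.1 in TNFR2+ and 2225 ± 384 in TNFR2- Tregs (SD, n = 4), with ranges of 4658 to 5344 and 1760 to 2699 that did not overlap. *Tnfrsf9* made up 13.5% of this sum in TNFR2+ libraries (range 10.9% to 17.8%) and 4.95% in TNFR2- libraries (3.11% to 7.18%). By the median coding length its share was 21.5% (17.5% to 27.5%) and 8.20% (5.14% to 11.8%), so the size of the share depended on the length and the separation of the groups did not. *Tnfrsf8* rose from 0.840% to 1.93% of the sum, with ranges that did not overlap. The shares of *Tnfrsf18* (23.2% against 28.2%) and *Tnfrsf25* (2.28% against 7.64%) were lower in TNFR2+ Tregs, also without overlap. *Tnfrsf4* held the largest share in both groups, 41.9% and 35.7%, with overlapping ranges, and *Tnfrsf1b* held 13.3% and 16.2%, likewise overlapping.

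**Figure D2:**
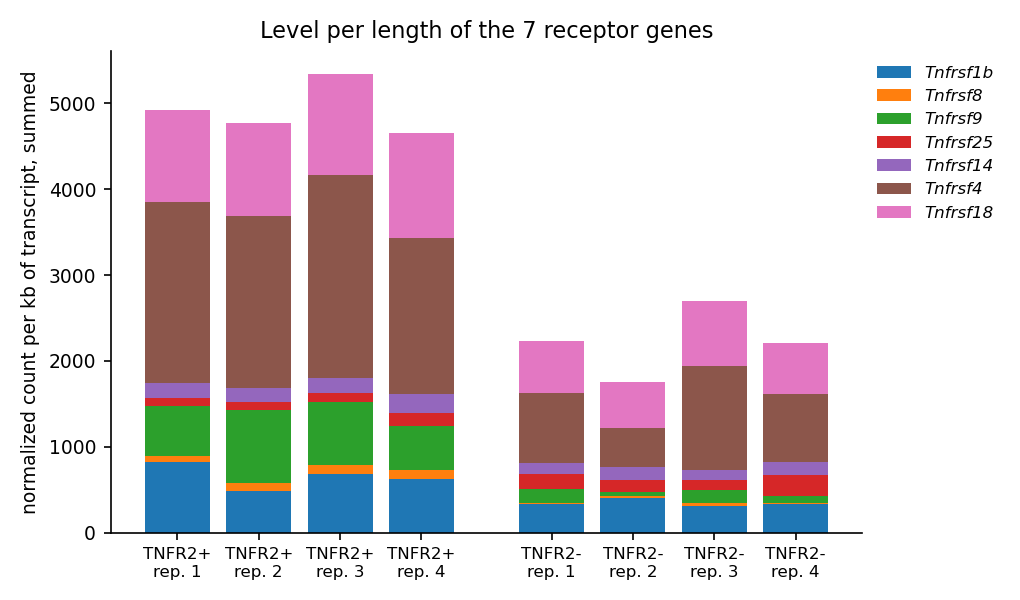
Normalized counts per kb of the longest coding transcript of the 7 receptor genes, stacked in each library from 0. The 4 TNFR2+ libraries reach 4658 to 5344 and the 4 TNFR2- libraries 1760 to 2699, with *Tnfrsf4* and *Tnfrsf18* forming most of each bar.

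Within TNFR2- Tregs, some of the receptor genes shared an order over the libraries. How many of all genes tested had this order is not given here. *Tnfrsf4*, *Tnfrsf8*, *Tnfrsf9* and *Tnfrsf18* were each higher in replicates 1 and 3 than in replicates 2 and 4. *Tnfrsf1b* and *Tnfrsf14* ran the other way, with *Tnfrsf14* higher in replicates 2 and 4 and *Tnfrsf1b* lowest in replicate 3 and highest in replicate 2. Replicate 3 held the highest TNFR2- value of *Tnfrsf4*, *Tnfrsf8* and *Tnfrsf18* and the lowest of *Tnfrsf1b*, *Tnfrsf14* and *Tnfrsf25*. In TNFR2+ Tregs replicates 1, 2 and 3 were each highest for 1 gene and replicate 4 for 4 genes. All 5 members that rose were above their group mean in TNFR2+ replicate 3, by 0.13 on average on the log2 scale, and 2 of the 5 were above it in each other TNFR2+ library.

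Some other measures of the TNFR2- libraries also put replicates 1 and 3 above replicates 2 and 4. On the first principal component of all genes tested (29.4% of the variance), replicates 1 and 3 lay at -34.0 and -26.7 and replicates 2 and 4 at -76.0 and -60.9, with TNFR2+ libraries between 27.6 and 71.1. The summed B cell markers were 2380.1 and 2939 in replicates 1 and 3 and 1845 and 1799 in replicates 2 and 4, and the summed Treg markers were 26893 and 30396 against 25217 and 26000. The summed cytotoxic (139, 122, 113 and 170.0 in replicates 1 to 4), myeloid (104, 114, 186 and 137) and platelet markers (41.2, 149.7, 183 and 102) did not. In both groups the B cell sum was highest in replicate 3, followed by replicates 1, 2 and 4. Without *Ighm* this order was kept in TNFR2- libraries only. In TNFR2+ libraries replicate 4 was then highest (565) and replicate 2 lowest (470). Replicate 3 of the TNFR2- libraries also stood apart on the second component (16.7% of the variance), at 91.3 against -39.1 to 17.96 for the other libraries. The part of sort purity or cell composition in the shared order was not tested, and without TNFR2- replicate 3 the 5 receptor calls were kept.

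**Figure D3:**
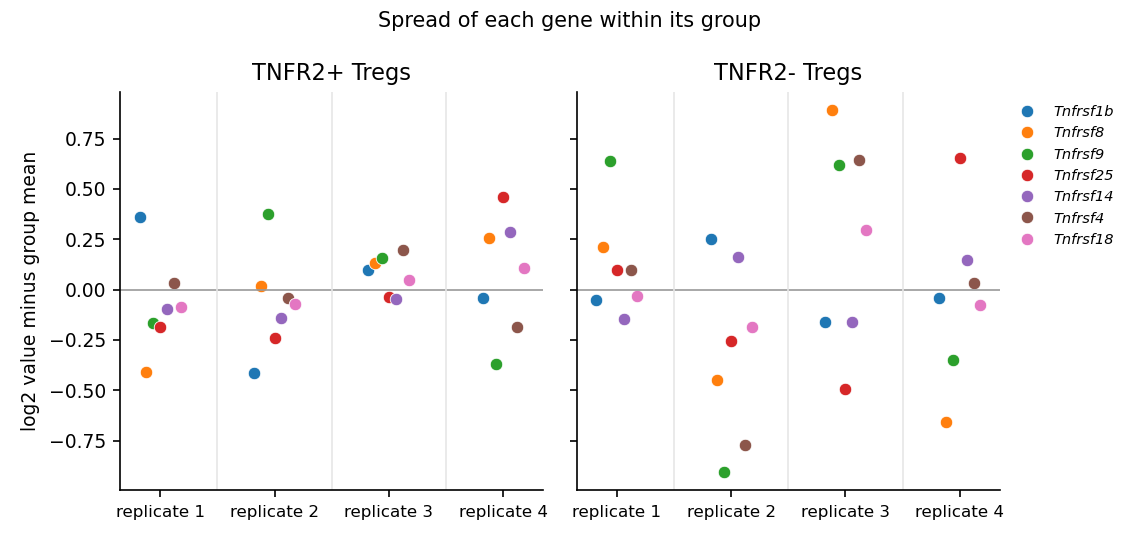
Deviation of each receptor gene from its group mean on the log2 scale, by library, in TNFR2+ (left) and TNFR2- (right) Tregs. In TNFR2- Tregs most points of *Tnfrsf4*, *Tnfrsf8*, *Tnfrsf9* and *Tnfrsf18* lie above 0 in replicates 1 and 3 and below 0 in replicates 2 and 4, and the spread of these 4 genes is wider than in TNFR2+ Tregs.

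Likeness of profiles was described by the root mean square distance between genes standardized over the 8 libraries, among 10244 genes with a mean of at least 50. By this distance *Tnfrsf18* was the 7th nearest gene to *Tnfrsf8* and *Tnfrsf8* the 7th nearest to *Tnfrsf18* (distance 0.159), although they lie near opposite ends of the 10.8 Mb. After the group means were removed they were still the 71st and the 68th nearest to each other. *Tnfrsf9* and *Tnfrsf4* were also close (distance 0.255), at place 78 and place 44. *Tnfrsf1b* was nearest to *Tnfrsf18* among the members at place 293, but with group means removed *Tnfrsf18* fell to place 8175, so their likeness lay in the group difference. *Tnfrsf25* was far from all members that rose, the nearest of them being *Tnfrsf1b* at place 8742. With group means removed *Tnfrsf1b* stood at place 5362 from *Tnfrsf25*, and *Tnfrsf14*, which did not pass, moved from place 6233 to place 731. These are descriptions over 8 points that share libraries and the group difference.

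Among the 3 genes with the profile nearest to each member there was no member of this family. For *Tnfrsf9* they included *Bag3* (log2 fold change 0.84) and *Aurka* (1.73), which encode a co-chaperone and a mitotic kinase. For *Tnfrsf8* they were *Gm3488*, *Cd44* (0.95), an adhesion receptor of activated T cells, and *Myo1e*. For *Tnfrsf4* they were *Fam43a*, *Mphosph6* and *Zc3h12c*, and for *Tnfrsf18* they were *Zfp36l1*, *Cd83* (2.34) and *Itgal* (0.83), the alpha chain of the integrin LFA-1. For *Tnfrsf1b* they were *Atp6v0c*, *Ttc39b* and *Smox*, for *Tnfrsf14* *Bahd1*, *Eif1ad* and *Cc2d1a*, and for *Tnfrsf25* *Ddx6*, *Pdcd4* and *Arl5c*.

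Few of the genes around the receptors were called. Of 133 other genes tested between the outermost members, 1 rose and 2 fell (2.26% called, against 7.91% of all genes tested and 6.71% on the rest of chromosome 4), and their median log2 fold change was -0.08. The gene that rose was *Acot7*, an acyl-CoA thioesterase gene 58.0 kb from *Tnfrsf25*, from 216 ± 130.1 to 538 ± 46.2 normalized counts (SD, n = 4; log2 fold change 1.55, adjusted p = 0.0245 by limma). The genes that fell were *Pik3cd*, which encodes the delta catalytic subunit of PI3 kinase (-0.58, adjusted p = 0.00791 by limma), and *Rere* (-0.50, adjusted p = 0.0356 by limma). Within 100 kb of a member, 20 other genes were tested and *Acot7* was the only call. The genes overlapping a member that rose, *Camta1* and *Gm16008*, had log2 fold changes of -0.34 and -0.95 and did not pass. The closest genes outside members that rose included *Sdf4*, 0.233 kb from *Tnfrsf4*, whose log2 fold change was 0.40 (0.0899 as adjusted p by limma), and *Park7*, 0.125 kb from *Tnfrsf9*, with 0.44 (adjusted p = 0.358 by limma). These 2 genes were named after their values were seen. The count of 3 in the window became 1 without TNFR2+ replicate 2 or TNFR2- replicate 2 and 5 without TNFR2- replicate 1 or 3.

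**Figure D4:**
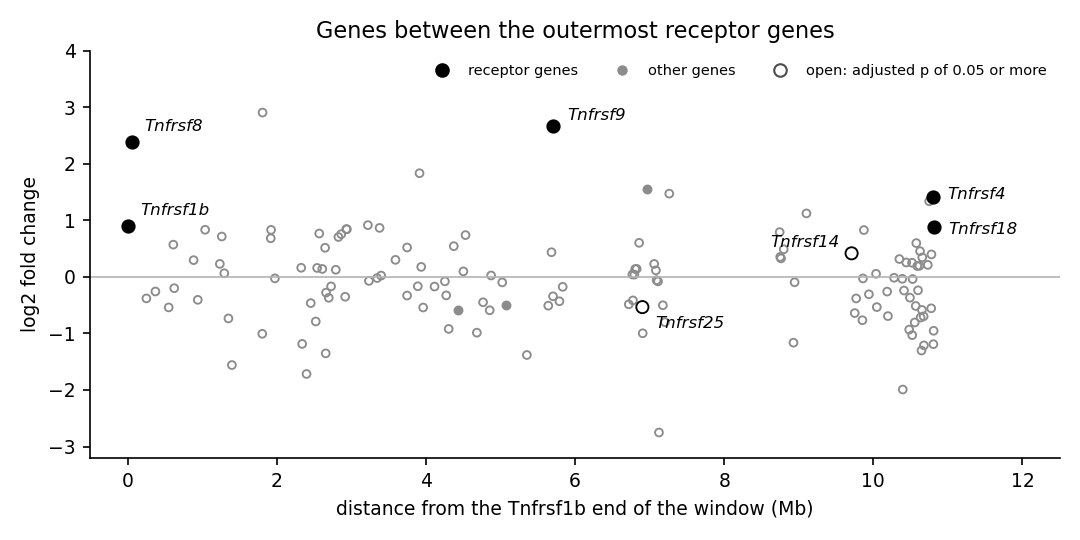
Log2 fold change (TNFR2+ minus TNFR2-) of the 7 receptor genes (black) and of 133 other genes tested (grey) against distance in Mb from the *Tnfrsf1b* end of the window; filled points have an adjusted p under 0.05. Filled grey points are *Pik3cd*, *Rere* and *Acot7*, and the other grey points scatter around 0.

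The TNF receptor superfamily genes outside chromosome 4 were counted in the same way. Of 21 other receptor genes listed, 19 were in the table (*Tnfrsf17* and *Edar* were not) and 10 passed the filter on low values. None of the 10 was called by limma, 3 were lower and 0 higher at an unadjusted p under 0.05 (10.7% and 12.3% of all genes tested), 7.91% of all genes tested were called, and their median log2 fold change was -0.35. *Tnfrsf1a*, which encodes TNFR1, the other receptor for TNF, stood at 104 ± 20.04 normalized counts in TNFR2+ and 168 ± 40.9 in TNFR2- Tregs (SD, n = 4; adjusted p = 0.162 by limma). *Cd27*, a costimulatory receptor of T cells, stood at 1112 ± 120 and 982 ± 126 and did not pass. Without TNFR2- replicate 4, 1 of these genes was called.

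**Figure D5:**
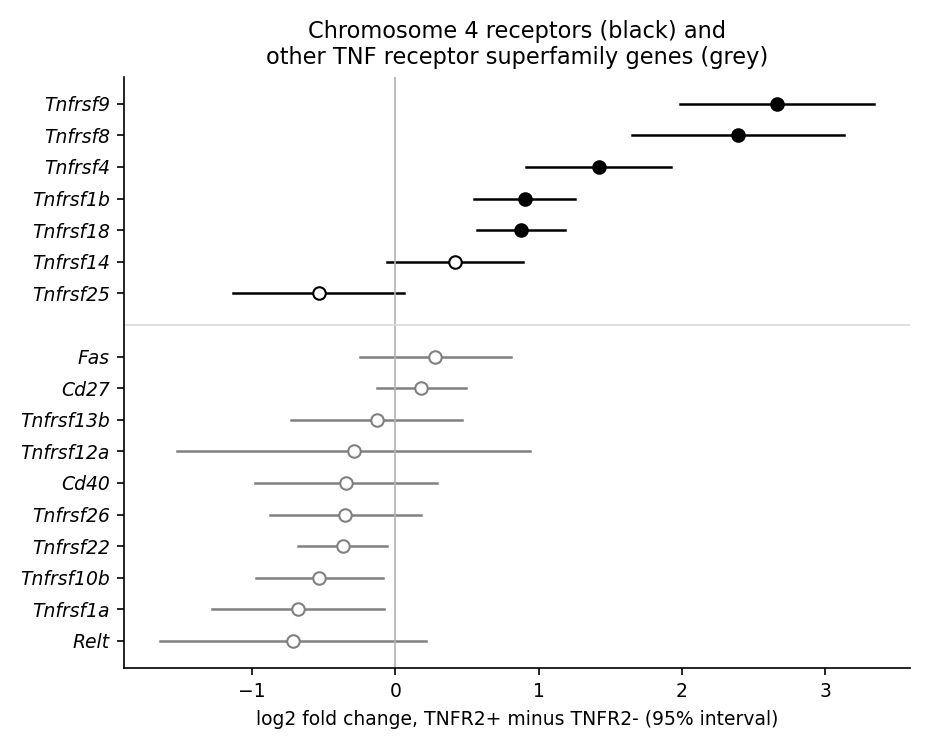
Log2 fold changes with 95% intervals of the 7 receptor genes of chromosome 4 (black) and of the 10 other TNF receptor superfamily genes tested (grey); filled points have an adjusted p under 0.05. The 5 filled points lie at 0.88 to 2.66, and of the 10 grey points 8 lie below 0 and 2 above.

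Ligands and partners of the 7 receptors were examined next, of which 10 of 11 were in the table (*Tnfsf18*, the ligand of GITR, was not) and all 10 were tested. Of these, 2 rose and 0 fell, where 4.52% and 3.39% of all genes tested did, and their median log2 fold change was 0.71. *Tnfsf8*, the ligand of CD30, measured 2077, 1993, 2729 and 2122 normalized counts in TNFR2+ replicates 1 to 4 and 950.2, 840.0, 1255 and 761 in TNFR2- replicates 1 to 4. No TNFR2- library reached the TNFR2+ range of *Tnfsf8*, which rose by 1.24 on the log2 scale (adjusted p = 7.99e-04 by limma). *Cd160*, a partner of HVEM, was low at 53.2 ± 9.75 and 13.2 ± 10.6 (SD, n = 4; log2 fold change 2.27, adjusted p = 0.0449 by limma). *Tnfsf4*, the ligand of OX40, at 37.7 ± 6.12 and 8.35 ± 7.84 (adjusted p = 0.0517 by limma), and *Tnfsf14*, the gene of LIGHT, at 62.5 ± 22.0 and 15.5 ± 11.0 (adjusted p = 0.0635 by limma), did not overlap between groups but did not pass. *Tnf* itself was at 245 ± 74.5 in TNFR2+ and 333 ± 99.2 in TNFR2- Tregs (SD, n = 4; log2 fold change -0.43, adjusted p = 0.419 by limma). *Tnfsf9*, the ligand of 4-1BB, was near the floor of the table at 19.0 ± 6.63 and 8.90 ± 12.8, as was *Tnfsf15*, the ligand of DR3, at 6.97 ± 5.58 and 13.7 ± 14.3. The TNFR2- means of *Tnfsf4* and *Tnfsf9* were below 10, the mean over all libraries required for testing. Both were therefore tested through their TNFR2+ values, and both enter the median of 0.71. *Tnfsf15*, with a TNFR2+ mean below 10, was tested through its TNFR2- values and enters it too. The median falls between the values of *Ltb* (0.18) and *Tnfsf8* (1.24). *Lta*, *Ltb* and *Btla* had log2 fold changes of -0.18, 0.18 and -0.09. Leaving out any single TNFR2+ library reduced the 2 calls to 1.

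Downstream of the receptors, 18 adaptor and kinase genes were tested, of which 1 rose and 3 fell, where 4.52% and 3.39% of all genes tested did, with a median log2 fold change of -0.01. *Traf4* rose by 0.80 on the log2 scale (adjusted p = 0.0455 by limma). *Map3k14*, the kinase NIK of noncanonical NF-kB signaling (-0.88, adjusted p = 0.0149 by limma), *Birc3*, the ubiquitin ligase cIAP2 (-0.63, adjusted p = 0.0206 by limma), and *Ikbkb*, an IKK subunit (-0.61, adjusted p = 0.0417 by limma), fell. This count of 4 became 0 without TNFR2- replicate 2, 1 without TNFR2+ replicate 2 or 3 and 2 without TNFR2+ replicate 4.

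Of 19 NF-kB subunits and target genes, 6 rose and 1 fell, where 4.52% and 3.39% of all genes tested did, with a median log2 fold change of 0.41 against -0.01 over all genes tested. The subunits that rose were *Rel* (0.89, adjusted p = 4.98e-04 by limma), *Relb* (0.54, adjusted p = 0.0282 by limma) and *Nfkb1* (0.42, adjusted p = 0.0250 by limma). The target genes that rose were *Cd83* (2.34), *Bcl2l1*, which encodes the survival protein BCL-XL (1.26), and *Gadd45b* (0.68, adjusted p = 0.0362 by limma). *Ccr7*, the lymph node homing receptor, fell (-0.80, adjusted p = 0.0109 by limma). The count of 7 became 4 without TNFR2+ replicate 2 or 3 or without TNFR2- replicate 2. *Rela* (-0.18) and the inhibitor *Nfkbia* (0.12) did not pass.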

How the data were processed

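Gene expression was measured by total RNA sequencing of 4 TNFR2+ and 4 TNFR2- libraries of splenic Tregs, grouped by sample title. According to the submitters' processing notes and the study's methods, the authors checked reads with FastQC 0.11.8, trimmed them with Trim Galore, quantified them with Salmon 1.3.0 on GRCm38 transcripts and normalized gene values with DESeq2 1.28 in R 4.0. The step from transcripts to genes is not given in the sources used here. The deposited values are a normalized signal per gene (normalized counts), not raw counts, so no count model was fitted. From the steps between low values of 2806 single-transcript genes, depth was estimated at 9100000 to 12110000 counts assigned to genes per library. Of the values used, 69.7% to 96.5% per library lay near a whole multiple of the step, where 20% would by chance.

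Genes with a mean of at least 10 were tested with limma 3.58.1 (R 4.3.3) on log2(value + 1), with an intensity trend and no covariate. Exact two-sided permutation tests used all 70 relabellings. Transcript lengths and positions came from GENCODE vM21, in which 20008 of the 20172 identifiers were found. Near copies were sought with blastn 2.17.0. The limma fit was tested on simulated data. Alternatives were pseudocounts of 0.5 and 8, a minimum mean of 50 or none, no intensity trend, other scalings, a replicate block and leaving out each library. The members, gene lists and tests were chosen with earlier results of these data known. Named genes were the members, list genes that passed or bind a member, called genes within 100 kb and the 3 genes most alike to each member; others are given as examples, and some are not reported here. Protein sequences were not used here.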

Additional observations from a re-analysis of the deposited data

How the results depend on the processing

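Of 236 values recomputed under other settings, 202 stayed on the same side of the threshold or within 1.5 times the reported count, 33 moved beyond that, 1 lost its call and 0 changed sign. These do not include the receptor pairs with 1 library left out, where *Tnfrsf1b* against *Tnfrsf18* ranged from -0.13 to 0.17 and 20 pairs kept their sign. *Tnfrsf1b*, at 0.90, no longer passed without the intensity trend. Without that trend the whole table gave 465 calls in place of 1107, the window 0, ligands and partners 1, adaptors 0 and the NF-kB list 3. With libraries centred on their median the window gave 6 and the NF-kB list 4. Ligands and partners gave 1 with a minimum mean of 50 or with no filter, and 4 with a pseudocount of 8 or with libraries rescaled to the same sum, which left 2 adaptors. That rescaling moved the median log2 fold change of all genes tested from -0.01 to 0.12. The cause of these shifts was not tested.

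With 1 library left out, the whole table gave 636 to 1324 calls (636 without TNFR2+ replicate 2, 693 without TNFR2+ replicate 3, 711 without TNFR2- replicate 2), the window 1 to 5, other family members 0 to 1, ligands and partners 1 to 2, adaptors 0 to 3 and the NF-kB list 4 to 8.

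Whether same-numbered libraries share a mouse is not given in the sources used here. Over all genes tested, deviations of same-numbered libraries correlated at -0.04 to 0.0005, so the numbers were not treated as pairs. The B cell marker sums had the same replicate order in both groups, but not once *Ighm* was left out. With a replicate block 1183 genes and the same number of 5 receptor genes were called, *Tnfrsf1b* with an adjusted p of 0.00997 by limma. Of 21 receptor ratios, 18 differed the same way in all 4 same-numbered pairs. The 14 ratios without overlap between the groups had to do so under any pairing. A sign-flip test over 4 pairs cannot give a p below 0.125, so no conclusion is drawn from this count. *Tnfsf9* and *Tnfsf15*, and *Tnfsf4* in TNFR2- libraries, lie near the lowest values of the table, where the precision is limited.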
